A study of Mus musculus with 9 samples.

Results

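The comparison described here sets lung grafts from donors that had been in hypovolemic shock against lungs labelled as naive controls, and it follows genes across the whole genome, other than the chemokines and cytokines most often reported after transplantation. Libraries were placed by their sample titles, which gave 3 shock grafts and 3 naive lungs, 6 of the 9 libraries of the series. All mice were adult and wild type, and RNA came from whole left lungs. Shock grafts were C57BL/6 lungs whose donors spent 4 h in shock at a mean arterial pressure of 15 ± 5 mmHg and then had 20 h of recovery. Each lung was next kept cold (0 °C) for 24 h and placed into a Balb/C recipient, whose blood flowed through it for 2 h, so a graft can also hold blood cells of the recipient strain. Naive lungs were C57BL/6 left lungs, for which the labels name no shock, storage or reperfusion. The remaining 3 libraries, called cold-ischemia grafts, had the same storage, transplantation and reperfusion without donor shock, and they serve here only to show where shock grafts differed from the nearest group. The comparison has no sham-operated group, so shock, recovery, storage, transplantation and reperfusion are compared all at once and cannot be told apart. The labels of the naive lungs also point to another series, so a batch shared by that group cannot be told apart from it.

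Cold storage deprives a lung of oxygen and nutrients, and reperfusion returns both within minutes together with the recipient's leukocytes. Cells answer with several well-studied programs. Immediate early transcription factors need no new protein to be induced, NRF2 raises genes that make glutathione and thioredoxin, the unfolded protein response raises chaperones of the endoplasmic reticulum, and interferons raise antiviral genes through STAT and IRF factors. In the lung, the capillary endothelium is the surface that first meets the returning blood, and it can present selectins and adhesion molecules to neutrophils.

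Total counts of the 6 libraries lay between 18913487 and 34986276 reads, and those of the shock grafts between 21925550 and 26555560. Lung identity was clear in all of them, with Sftpc, which encodes surfactant protein C of alveolar type 2 cells, at 12727, 14458 and 13321 CPM in the naive lungs and 11406, 7996 and 10206 CPM in the shock grafts (CPM, read counts scaled to the library total after TMM adjustment). A gene is called here when its Benjamini-Hochberg adjusted p over the 15834 genes tested was under 0.05 in edgeR's quasi-likelihood test. On that rule 39.9% of the genes tested were called, 22.0% (3483) higher in shock grafts and 17.9% (2836) lower. These shares are the background for every count given below. The libraries of the groups did not overlap, with every graft above, at 26.4% of the genes tested, and with every graft below at 27.2%. The labels number the lungs and do not say more about the animals, so p-values measure the spread between these samples.

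Rises were larger than falls. At least 4-fold rises were fitted for 838 called genes against 308 falls of that size, and at least 16-fold rises for 230 against 25. Calls also leaned on the level of a gene. In the quartile of genes with the highest mean CPM 39.8% were higher and 10.8% lower, whereas in the quartile just below the median 13.4% were higher and 25.9% lower. Scaling by the upper quartile in place of TMM moved the median log2 fold change of all genes from -0.06 to -0.28 and turned the split of calls to 2681 higher and 4661 lower, against 3483 and 2836. Directions below are those under TMM. None of the 262 genes chosen by the naming rule changed direction under any alternative that was run. They were chosen for their changes or adjusted p in these same data, so few reversals could be seen among them. Of all 6319 called genes, 87.3% kept call and direction under upper-quartile scaling.

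**Figure D1:**
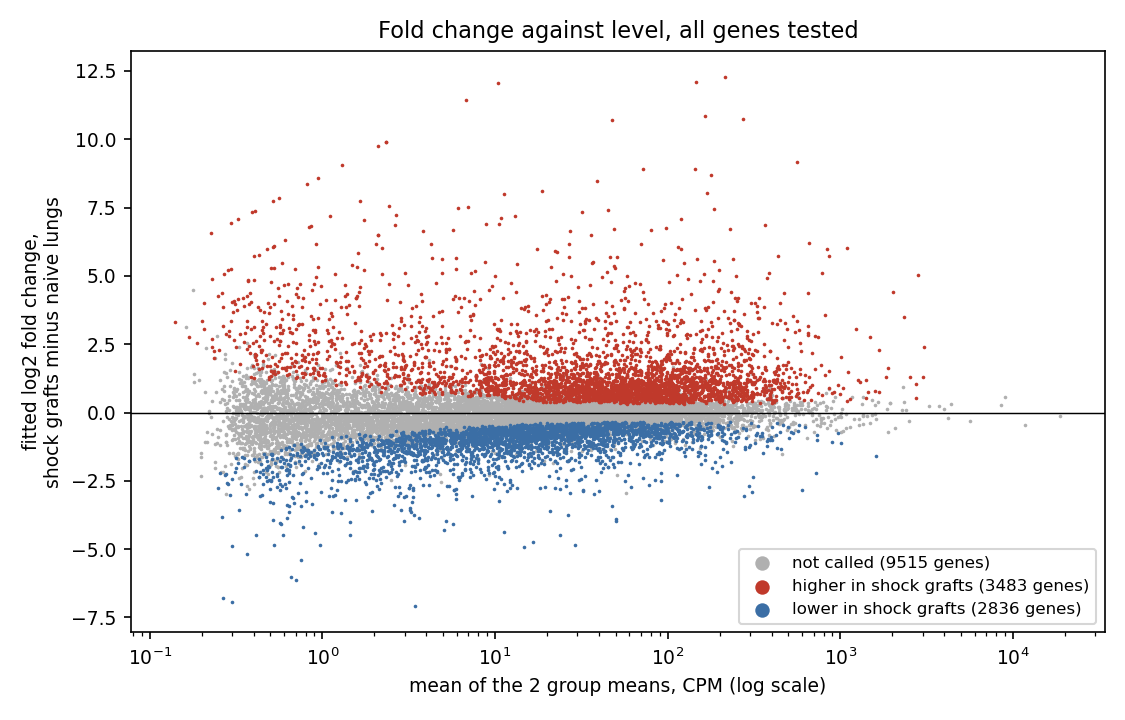
Fitted log2 fold change of shock grafts over naive lungs (vertical axis) against the mean of both group means in CPM (horizontal log axis) for the 15834 genes tested, with called genes in red (3483 higher) and blue (2836 lower) and other genes in grey. The largest rises reach higher than the largest falls reach low, and called rises are dense at high levels.

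Shock grafts varied more among themselves than naive lungs did. Over 10584 genes with at least 5 CPM in both groups, the median SD of log2 levels was 0.244 in the shock grafts and 0.129 in the naive lungs. The second shock graft was the one farthest from the mean of its group at 43.6% of these genes. On the first principal component of the 6 libraries, which held 73.8% of the variance, the shock grafts stood at 70.4, 92.1 and 54.2 and the naive lungs between -77.8 and -68.1. The next component, with 11% of the variance, parted the second shock graft (47.4) from the third (-48.3). The authors' deposited tables place the third shock graft with the cold-ischemia grafts and a cold-ischemia graft, the second, with the shock grafts. Levels of the third shock graft correlated best with those of the first cold-ischemia graft (Pearson's r = 0.988 across genes, which are not independent replicates). Levels of the second cold-ischemia graft correlated best with those of the first shock graft (r = 0.983). With the first and the third cold-ischemia graft its r was 0.976 and 0.978. With the groups of the deposited tables, 3773 genes were higher and 3534 lower, and without the third shock graft 3523 were higher and 3112 lower. Counts over 4 that moved by over 1.5 times without that library are given below with their other value, and many counts of 4 or fewer moved as well.

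Between the shock grafts and the cold-ischemia grafts edgeR called no gene (0% of 15834), while 1152 genes had an unadjusted p under 0.05 and DESeq2 called 8. Grouped as in the deposited tables, edgeR called 124. None of the genes named below passed that test under the titles' groups, so no change described here was shown to be particular to the shocked donors. Ifi202b may serve as an example, at 4.49, 1.97 and 0.923 CPM in the cold-ischemia grafts against 9.79, 25.8 and 5.15 CPM in the shock grafts (log2 difference 2.46, adjusted p = 0.671).

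Among the largest rises were genes of the vessel wall and of matrix cleavage. Adamts4, an aggrecanase that cleaves proteoglycans, stood at 0.744, 1.31 and 3.64 CPM in the naive lungs and 1122, 1759 and 488 CPM in the shock grafts (log2 fold change 9.17, SE 0.91, adjusted p = 3.73e-05). Sele, which encodes the endothelial adhesion receptor E-selectin, stood at 1.34, 1.18 and 1.29 CPM in the naive lungs and 365, 513 and 135 CPM in the shock grafts (log2 fold change 8.04, SE 0.64, adjusted p = 8.98e-06). Selp, which encodes P-selectin of endothelium and platelets, stood at 2.37, 2.44 and 1.64 CPM in the naive lungs and 269.9, 573 and 266 CPM in the shock grafts (log2 fold change 7.43, SE 0.52, adjusted p = 4.16e-06). No overlap was a condition of this choice. For all of these the lowest shock graft lay far above the highest naive lung, and the third shock graft was the lowest. Other large rises began near the floor of detection. Gpr84, a receptor of myeloid cells for medium-chain fatty acids, had 8 reads over the naive lungs and 1471 over the shock grafts, a ratio of 269 per scaled read total (95% counting interval 136 to 624). Prss22, an airway serine protease, had 6 reads over the naive lungs and 783 over the shock grafts (ratio 191, interval 87.2 to 521). Ereg, which encodes the EGF receptor ligand epiregulin, had 17 and 1706 reads (ratio 147, interval 91.3 to 252). Ifi202b, an interferon-inducible gene, had no read in the naive lungs and 866 in the shock grafts, at least 422-fold higher against a floor of 3 reads over the naive group. The naive lungs were C57BL/6 only and the grafts can hold Balb/C blood cells. A difference of strain and a response of the graft therefore cannot be told apart for Ifi202b. These intervals and bounds cover counting error only.

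The largest falls included genes known from mesothelium and capillaries. Bnc1, which encodes a zinc finger protein found in mesothelium, had 649 reads over the naive lungs and 1 read in each shock graft (ratio 148, interval 50.4 to 720). Chst4, which encodes a carbohydrate sulfotransferase, stood at 8.21, 12.7 and 8.12 CPM in the naive lungs and 1.21, 0.0498 and 0.136 CPM in the shock grafts (log2 fold change -4.31, SE 0.71, adjusted p = 0.000892). Sfrp2, which encodes a secreted modulator of Wnt signalling, stood at 8.15, 13.8 and 10.6 CPM in the naive lungs and 0.544, 0.199 and 1.13 CPM in the shock grafts (log2 fold change -4.09, SE 0.47, adjusted p = 9.70e-05). Ccdc8, a gene of the 3M complex, stood at 22.3, 22.7 and 19.3 CPM in the naive lungs and 0.753, 1.15 and 1.17 CPM in the shock grafts (log2 fold change -4.38, SE 0.41, adjusted p = 2.50e-05). The shock grafts lay wholly below the naive lungs in each of them, as the rule of choice requires, and the second shock graft was lowest for Chst4 and Sfrp2. Aplnr, the apelin receptor of general capillary cells, stood at 85.9, 101 and 97.7 CPM in the naive lungs and 1.34, 1.99 and 14.8 CPM in the shock grafts (log2 fold change -3.97, SE 0.86, adjusted p = 0.00435). The third shock graft kept several times more Aplnr than the other two, yet far less than any naive lung.

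**Figure D2:**
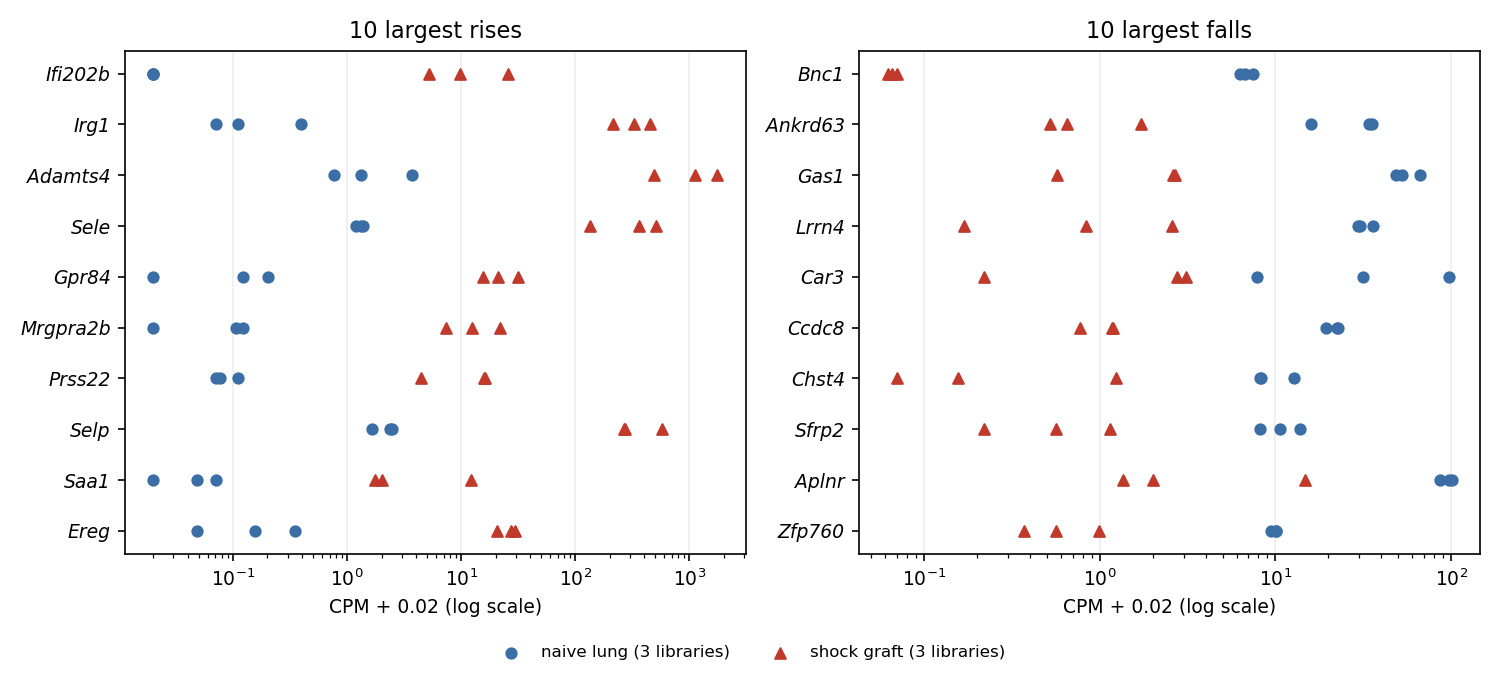
CPM plus 0.02 on a log axis for the 10 largest rises (left) and the 10 largest falls (right) among named genes, with each naive lung as a blue circle and each shock graft as a red triangle. The 20 genes were chosen to have no overlap between shock grafts and naive lungs. The shock grafts spread widely for Lrrn4, Chst4 and Aplnr.

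In CPM gained, a scale that also grows with transcript length, the first places went to genes of adhesion and the cytoskeleton. Thbs1, which encodes the matrix glycoprotein thrombospondin 1, stood at 142, 139 and 224 CPM in the naive lungs and 6620.0, 5486 and 4246 CPM in the shock grafts (log2 fold change 5.02, SE 0.36, adjusted p = 4.74e-06). Icam1, the adhesion receptor that leukocyte integrins bind, stood at 385, 382 and 368 CPM in the naive lungs and 3659, 5355 and 3876 CPM in the shock grafts (log2 fold change 3.51, SE 0.21, adjusted p = 1.47e-06). Akap12, a scaffold for protein kinase A, stood at 182, 184 and 179 CPM in the naive lungs and 4068, 3206 and 4349 CPM in the shock grafts (log2 fold change 4.42, SE 0.25, adjusted p = 1.18e-06). Each of them rose in all 3 shock grafts to levels well apart from the naive range, and no overlap was again a condition of the choice. Clic4 (2.38), Sqstm1 (2.76), which encodes the autophagy receptor p62, and Ahnak (1.31) complete the 6 largest gains, given as log2 fold changes.

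Among called genes, the largest losses in CPM included alveolar and vascular genes. Sftpc lost more CPM but was not called (adjusted p = 0.129). Slc34a2, the phosphate transporter of alveolar type 2 cells, stood at 2301, 2583 and 2359.6 CPM in the naive lungs and 775, 1111 and 541 CPM in the shock grafts (log2 fold change -1.58, SE 0.31, adjusted p = 0.00246). Calcrl, a receptor that binds adrenomedullin together with Ramp2, stood at 1225, 1287 and 1065 CPM in the naive lungs and 394, 175 and 207 CPM in the shock grafts (log2 fold change -2.20, SE 0.30, adjusted p = 0.00029). Both fell in every shock graft, and no overlap was a condition for the losses as well. Col3a1, a fibrillar collagen of fibroblasts, stood at 471, 935 and 1750.0 CPM in the naive lungs and 171, 32.1 and 235 CPM in the shock grafts (log2 fold change -2.85, SE 0.65, adjusted p = 0.00581), so the naive lungs alone spread widely, and its call was lost with the groups of the deposited tables (adjusted p = 0.0762). Ptprb, the endothelial phosphatase VE-PTP, stood at 1532, 1371 and 1254 CPM in the naive lungs and 792, 292 and 829.5 CPM in the shock grafts (adjusted p = 0.0175), and its call was lost without the first naive lung (adjusted p = 0.0509). Npnt, an integrin ligand of the alveolar basement membrane, and Thbd, the anticoagulant receptor thrombomodulin, had log2 fold changes of -1.08 and -0.76. Their calls were lost without the second or the third naive lung or the first or the second shock graft, with adjusted p up to 0.0968 for Npnt and up to 0.0975 for Thbd.

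Antiviral genes rose nearly as a block. Of 29 interferon-stimulated genes tested, 26 were higher and none lower, with a median log2 fold change of 1.95 against -0.06 over all genes. Ifi202b, for which strain and response cannot be told apart, is among the 26. The members Oasl1, Mx2 and Mx1 had the smallest adjusted p. Oasl1, of the family of oligoadenylate synthetases, stood at 2.83, 2.58 and 1.92 CPM in the naive lungs and 84.7, 107.97 and 68.2 CPM in the shock grafts (log2 fold change 5.16, SE 0.36, adjusted p = 3.80e-06). Mx2, a dynamin-like antiviral GTPase, stood at 1.26, 1.31 and 1.69 CPM in the naive lungs and 44.3, 51.2 and 48.5 CPM in the shock grafts (log2 fold change 5.06, SE 0.47, adjusted p = 2.48e-05). Mx1, its neighbour and relative, had a log2 fold change of 4.40. The GTPases of the immunity-related and guanylate-binding families, which act on the membranes of intracellular pathogens, also moved upward, 11 of 15 higher and none lower (median 1.86). Irgm1 stood at 35.3, 40.2 and 36.5 CPM in the naive lungs and 270.3, 355 and 296 CPM in the shock grafts (log2 fold change 3.04, SE 0.42, adjusted p = 0.000324) and Gbp5 at 17.4, 18.0 and 10.8 CPM in the naive lungs and 118, 274 and 257 CPM in the shock grafts (log2 fold change 3.82, SE 0.53, adjusted p = 0.000326). The naive lungs and the shock grafts did not overlap for any of these genes, and the shock grafts lay close together for Mx2 and Irgm1. Several of these families have close copies, such as Tgtp1 and its paralog, whose reads can be assigned to either copy.

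Promoters of these genes carry a known site, shown here for the called members with the smallest adjusted p that hold it. The interferon-stimulated response element was searched on both strands in RefSeq promoters of GRCm38.p6, from 250 bases before to 50 after each start. It was found for 11 of 20 list members with a promoter in the table in 3.44% of 32851 promoters of that length, and for 3.89% of 11381 tested genes with a promoter. Capitals mark the match, in either orientation, which lies before the start of the gene. The windows are at chr12:26456548-26456587 (minus strand), chr19:34640770-34640828 (plus strand) and chr5:120777710-120777749 (minus strand), read 5′ to 3′ along the gene's strand.
Rsad2: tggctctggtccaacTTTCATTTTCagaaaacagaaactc
Ifit1: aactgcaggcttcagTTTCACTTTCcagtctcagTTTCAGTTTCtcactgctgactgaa
Oas3: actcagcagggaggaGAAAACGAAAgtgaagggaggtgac
Ifit1 holds the site at a pair of places, Rsad2 and Oas3 at 1. Rsad2, which encodes the antiviral protein viperin, stood at 3.29, 3.98 and 3.97 CPM in the naive lungs and 267, 275 and 168 CPM in the shock grafts (log2 fold change 5.98, SE 0.61, adjusted p = 4.26e-05). Ifit1, whose product binds foreign RNA ends, stood at 16.9, 22.4 and 26.8 CPM in the naive lungs and 787, 826 and 639 CPM in the shock grafts (log2 fold change 5.09, SE 0.55, adjusted p = 6.03e-05). Oas3, which makes the second messenger that activates RNase L, stood at 2.00, 1.67 and 1.85 CPM in the naive lungs and 24.2, 43.2 and 12.2 CPM in the shock grafts (log2 fold change 3.84, SE 0.45, adjusted p = 0.000108). All 3 rose in every shock graft. A match is a description of the letters and not a site of binding in these lungs.

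Immediate early factors had 20 of 20 higher and a median log2 fold change of 2.71. Myc, a driver of growth, stood at 6.01, 6.24 and 7.84 CPM in the naive lungs and 257, 266 and 136 CPM in the shock grafts (log2 fold change 5.03, SE 0.31, adjusted p = 1.85e-06). Fosl2 and Junb, subunits of AP-1, stood at 683, 611 and 880.4 and 1011, 921 and 1023 CPM in the shock grafts against 81.5, 63.1 and 79.9 and 107.9, 86.2 and 59.6 CPM in the naive lungs (log2 fold changes 3.27 and 3.54). The shock grafts were high in all of these, and the third graft was lowest for Myc. Genes of the dual-specificity phosphatase family, only some of which switch off MAP kinases, moved in both directions. Of 21 dual-specificity phosphatases 7 were higher and 3 lower (6 lower under upper-quartile scaling), with Dusp2 at 2.83, 2.44 and 4.27 CPM in the naive lungs and 45.8, 48.4 and 47.4 CPM in the shock grafts (log2 fold change 3.87, SE 0.22, adjusted p = 1.12e-06) and Dusp22 lower (-1.01). Krüppel-like factors were split evenly, 4 higher and 4 lower of 15. Klf6, an injury-responsive factor, stood at 264, 180.5 and 202 CPM in the naive lungs and 862, 714 and 781 CPM in the shock grafts (log2 fold change 1.87, SE 0.18, adjusted p = 3.19e-05). Klf2, the factor that laminar flow maintains in endothelium, stood at 429, 228 and 258 CPM in the naive lungs and 92.3, 95.4 and 108.9 CPM in the shock grafts (log2 fold change -1.63, SE 0.22, adjusted p = 0.000243). Klf6 thus lay above and Klf2 below the naive range in every shock graft.

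Genes that defend against oxidants and metals rose strongly. Of 17 NRF2 targets 13 were higher and none lower (median log2 fold change 1.30). Slc7a11, the cystine importer that feeds glutathione synthesis, stood at 2.32, 1.63 and 1.39 CPM in the naive lungs and 162, 239 and 184 CPM in the shock grafts (log2 fold change 6.77, SE 0.33, adjusted p = 5.95e-07). Srxn1, which restores oxidized peroxiredoxins, stood at 27.95, 25.7 and 23.4 CPM in the naive lungs and 405, 617 and 377 CPM in the shock grafts (log2 fold change 4.18, SE 0.36, adjusted p = 1.42e-05). Txnrd1, thioredoxin reductase, stood at 92.8, 76.4 and 80.2 CPM in the naive lungs and 597, 1081 and 650.1 CPM in the shock grafts (log2 fold change 3.22, SE 0.31, adjusted p = 2.78e-05). The second shock graft was the highest for these 3 genes and no shock graft reached down to the naive range. Metallothioneins bind zinc and copper. Of 5 tested genes of metallothioneins and zinc transport 3 were higher and 1 lower. Mt1 stood at 41.1, 41.8 and 51.2 CPM in the naive lungs and 1222, 1817 and 1558 CPM in the shock grafts (log2 fold change 5.10, SE 0.29, adjusted p = 1.20e-06) and Mt2 at 14.0, 12.8 and 26.3 CPM in the naive lungs and 911, 1667 and 1307 CPM in the shock grafts (log2 fold change 6.19, SE 0.43, adjusted p = 3.87e-06). Slc39a14, a zinc and iron importer, rose with them (3.37).

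Stress programs of protein folding rose in part. Of 19 genes of the unfolded protein response 9 were higher and none lower (median 0.65), and with the groups of the deposited tables, 15 were higher. Hspa5, the chaperone BiP of the endoplasmic reticulum, stood at 377, 476 and 863 CPM in the naive lungs and 3353, 2250.5 and 2680.2 CPM in the shock grafts (log2 fold change 2.27, SE 0.30, adjusted p = 0.000214). Atf4, the factor that raises amino acid supply under stress, stood at 116, 101 and 127 CPM in the naive lungs and 542, 636 and 457 CPM in the shock grafts (log2 fold change 2.25, SE 0.19, adjusted p = 1.08e-05). Neither overlapped between the groups. Of 18 heat shock proteins and cochaperones 9 were higher and none lower (median 1.04), and 14 were higher without the third naive lung, which held the highest naive level of most members. Bag3, a cochaperone of HSP70, stood at 51.2, 61.9 and 79.7 CPM in the naive lungs and 224, 204 and 172 CPM in the shock grafts (log2 fold change 1.64, SE 0.19, adjusted p = 0.000112), and Hspb8, a small heat shock protein, at 59.3, 57.2 and 78.5 CPM in the naive lungs and 181, 184 and 149 CPM in the shock grafts (log2 fold change 1.40, SE 0.16, adjusted p = 0.000108). The naive median of the heat shock list was 0.59 above the group's mean on a log2 scale in the third naive lung and 0.33 and 0.19 below it in the others.

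Known stress sites stand in promoters of these genes, and the called members with the smallest adjusted p that hold one are shown with the match in capitals. The antioxidant response element, searched as TGACNNNGC, was found for 7 of 14 NRF2 list members with a promoter in 12.4% of all promoters and for 16.9% of tested genes with a promoter. The endoplasmic reticulum stress element, which joins a CCAAT box to CCACG, was found for 6 of 17 members in 0.119% of all promoters and for 0.167% of those genes. The metal response element, searched as TGCACNC or TGCGCNC, was found for 3 of 4 members in 25.7% of all promoters and for 39.0% of those genes, so it is common. Both strands were searched, and no match shown overlaps one of the other motifs. The windows are at chr10:82859099-82859137, chr2:34772010-34772058 and chr8:94179051-94179087, all on the plus strand of GRCm38.p6 and from RefSeq.
Txnrd1: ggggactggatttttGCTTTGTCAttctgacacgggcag
Hspa5: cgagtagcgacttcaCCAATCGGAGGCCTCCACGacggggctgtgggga
Mt1: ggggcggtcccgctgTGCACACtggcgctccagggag
For heat shock chaperones the heat shock element was searched by the same rules, and it was found for 4 of 14 members in 0.603% of all promoters and for 0.545% of tested genes with a promoter.

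Genes of oxygen shortage and glucose use rose with these. Of 24 tested 12 were higher and none lower (median 0.45). Hk2, the hexokinase induced by HIF-1, stood at 24.5, 21.2 and 21.7 CPM in the naive lungs and 218, 199.5 and 194 CPM in the shock grafts (log2 fold change 3.18, SE 0.19, adjusted p = 1.69e-06). Pfkfb3, which makes the allosteric activator of glycolysis, stood at 139, 148 and 91.7 CPM in the naive lungs and 788, 983 and 1123 CPM in the shock grafts (log2 fold change 2.94, SE 0.23, adjusted p = 8.21e-06). Slc16a3, the lactate exporter, had a log2 fold change of 3.10. All 3 lay above the naive range in every shock graft. Among 16 targets of p53, 10 were higher and 4 lower. Mdm2, the ligase that restrains p53, stood at 46.8, 41.8 and 45.3 CPM in the naive lungs and 158, 125 and 135 CPM in the shock grafts (log2 fold change 1.64, SE 0.13, adjusted p = 9.64e-06), and the death receptor genes Fas (2.35) and Tnfrsf10b (3.53) rose as well. Bbc3, which encodes the proapoptotic PUMA, stood at 11.6, 15.4 and 21.1 CPM in the naive lungs and 7.83, 7.07 and 8.99 CPM in the shock grafts (log2 fold change -1.01, SE 0.24, adjusted p = 0.00714). The lower count fell from 4 to 2 without the second or the third naive lung or the first shock graft.

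Glucocorticoid-responsive genes were mostly higher, 9 of 14 with 1 lower. The lower one was Tsc22d3, with log2 fold changes from -1.34 to -0.8 over the alternatives. That call was lost without the first or the third naive lung, or without the first or the second shock graft (adjusted p up to 0.0657). Errfi1, a brake on the EGF receptor, stood at 255, 136 and 178 CPM in the naive lungs and 1302, 1330.3 and 1252 CPM in the shock grafts (log2 fold change 2.77, SE 0.28, adjusted p = 4.12e-05), and Pdk4, which holds back pyruvate oxidation, at 12.2, 16.1 and 28.1 CPM in the naive lungs and 183, 120.0 and 181 CPM in the shock grafts (log2 fold change 3.10, SE 0.34, adjusted p = 7.52e-05). The cold-inducible RNA-binding and splicing genes had 6 of 9 higher and 1 lower. Rbm3, the classic cold-shock RNA-binding protein, stood at 82.5, 72.7 and 54.7 CPM in the naive lungs and 185, 247 and 204 CPM in the shock grafts (log2 fold change 1.60, SE 0.19, adjusted p = 0.000135). Its shock grafts all lay far above the highest naive lung. Of 19 clock genes 3 were higher and 4 lower, and 5 were higher without the third naive lung or with the grouping of the deposited tables. Bhlhe40, a repressor of clock genes, stood at 64.5, 91.2 and 48.1 CPM in the naive lungs and 264, 208 and 298 CPM in the shock grafts (log2 fold change 1.92, SE 0.23, adjusted p = 0.000139). The output factor Hlf stood at 84.8, 95.1 and 22.3 CPM in the naive lungs and 10.6, 9.42 and 29.9 CPM in the shock grafts, and there the third naive lung lay among the grafts. Its call was lost without the first or the second naive lung, or without the first or the second shock graft (adjusted p up to 0.0816). None of the 19 was called lower without the second naive lung or without the first shock graft. Hour of day is not among the labels used here, and its part in these values was not tested.

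**Figure D3:**
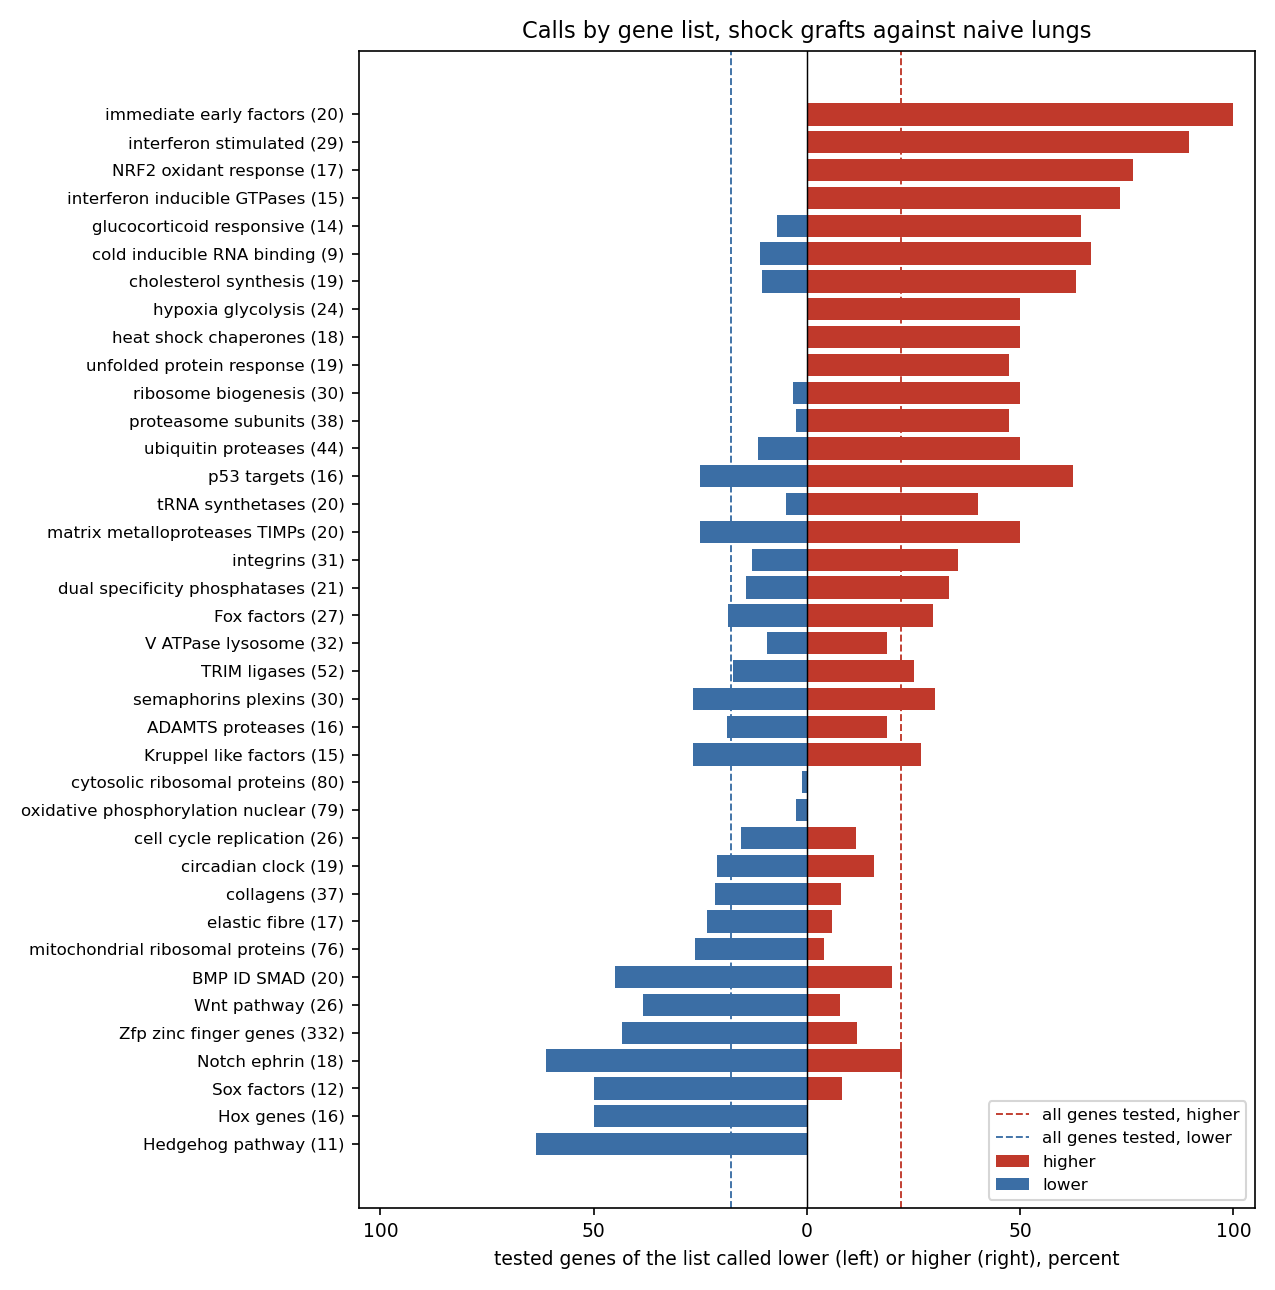
Percent of tested genes called higher (red, to the right) or lower (blue, to the left) in shock grafts for gene lists of responses, biosynthesis, regulators and matrix, with the number tested in parentheses. Dashed lines mark the same shares over all genes tested, 22.0% higher and 17.9% lower, and the lists run from all higher for immediate early factors to lower only for Hedgehog and Hox genes.

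Machinery that builds ribosomes moved apart from the ribosome itself. Of 30 ribosome biogenesis factors 15 were higher and 1 lower (median 0.75), with Nop58, a core protein of nucleolar ribonucleoproteins, at 19.9, 22.9 and 22.4 CPM in the naive lungs and 100.02, 128 and 89.8 CPM in the shock grafts (log2 fold change 2.28, SE 0.19, adjusted p = 1.23e-05). Ddx21, a nucleolar helicase, rose likewise (1.61). In the second shock graft the median of the list was 1.29 above the naive mean on a log2 scale, against 0.32 and 0.43 in the others. Of 80 cytosolic ribosomal proteins none was higher and 1 was lower (median 0.01), far under the background shares in both directions. Of 20 tRNA synthetases 8 were higher, with Aars, which charges alanine tRNA, at 70.8, 81.7 and 91.1 CPM in the naive lungs and 166, 244 and 143 CPM in the shock grafts (log2 fold change 1.18, SE 0.19, adjusted p = 0.000845), and 5 were higher under upper-quartile scaling.

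Mitochondrial ribosomal proteins were more often lower than higher. Of 76 mitochondrial ribosomal proteins 3 were higher and 20 lower (median -0.33), with Mrpl34 at 13.4, 17.01 and 16.6 CPM in the naive lungs and 6.57, 8.92 and 5.87 CPM in the shock grafts (log2 fold change -1.14, SE 0.23, adjusted p = 0.0028). That count of 20 was 36 under upper-quartile scaling and 7, 10, 11 and 10 without the second, first or the third naive lung or the first shock graft. The nuclear genes of oxidative phosphorylation had none higher and 2 lower of 79 (median -0.21), under the background shares in both directions. Ndufv3, a subunit of complex I, stood at 27.2, 26.5 and 29.3 CPM in the naive lungs and 12.6, 16.1 and 15.0 CPM in the shock grafts (log2 fold change -0.92, SE 0.17, adjusted p = 0.00163). The count of 2 rose to 20 under upper-quartile scaling, 29 with the groups of the deposited tables, 6 without the second cold-ischemia graft and 5 without the third shock graft. It was 1 without any 1 of the naive lungs or without the first shock graft.

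Protein turnover genes rose by small amounts. Of 38 proteasome subunits 18 were higher and 1 lower (median 0.42). Psmd11, of the regulatory lid, stood at 60.8, 57.7 and 68.4 CPM in the naive lungs and 153, 192 and 131 CPM in the shock grafts (log2 fold change 1.35, SE 0.19, adjusted p = 0.00035), while Psmd5, an assembly chaperone and the 1 member called lower, stood at 30.9, 33.2 and 37.9 CPM in the naive lungs and 23.1, 22.1 and 19.2 CPM in the shock grafts (log2 fold change -0.67, SE 0.14, adjusted p = 0.00418). Only 6 were higher under upper-quartile scaling, and 9, 10 and 11 without the first naive lung, the second naive lung or the second shock graft. Of 44 ubiquitin-specific proteases 22 were higher and 5 lower, with Usp16 at 32.8, 32.8 and 38.7 CPM in the naive lungs and 101, 93.0 and 87.9 CPM in the shock grafts (log2 fold change 1.44, SE 0.13, adjusted p = 2.47e-05). The 5 became 9 under upper-quartile scaling, 2 with a replicate block and 1 to 3 without any 1 naive lung or without the first or the second shock graft. Of 19 sterol genes 12 were higher and 2 lower (median 0.75), and none was lower without the second naive lung. Cyp51, which encodes a demethylase of cholesterol synthesis, stood at 28.04, 33.7 and 30.2 CPM in the naive lungs and 98.8, 85.4 and 77.3 CPM in the shock grafts (log2 fold change 1.51, SE 0.14, adjusted p = 2.21e-05). Few genes of the cell cycle were called, 3 higher and 4 lower of 26. Pcna, the sliding clamp of replication and repair, stood at 48.2, 46.6 and 54.9 CPM in the naive lungs and 87.0, 129 and 91.9 CPM in the shock grafts (log2 fold change 1.04, SE 0.19, adjusted p = 0.00182). The helicase subunit genes Mcm2 and Mcm7 and the mitotic kinase gene Aurkb were lower (log2 fold changes -0.70, -0.56 and -1.14), and each lost its call in at least 1 alternative, with adjusted p up to 0.0913, 0.0639 and 0.0968. The 4 lower became 7 under upper-quartile scaling, 1 with the grouping of the deposited tables and 2 without the third naive lung, the first shock graft or the third shock graft, and the 3 higher became 1 without the first naive lung.

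Zinc finger genes named Zfp, many of them repressors with a KRAB domain, were more often lower than higher. Of 332 tested 144 were lower and 39 higher, 43.4% against a background of 17.9%, with a median log2 fold change of -0.55. The median of the family per library was -0.49, -0.44 and -0.52 in the 3 shock grafts relative to the naive mean, so it was alike in all of them. Zfp760 stood at 9.99, 9.36 and 10.1 CPM in the naive lungs and 0.963, 0.349 and 0.542 CPM in the shock grafts (log2 fold change -3.96, SE 0.36, adjusted p = 1.94e-05), Zfp467 at 26.01, 29.2 and 26.7 CPM in the naive lungs and 8.79, 8.82 and 8.09 CPM in the shock grafts (log2 fold change -1.67, SE 0.15, adjusted p = 2.05e-05) and Zfp503 at 77.7, 111 and 95.1 CPM in the naive lungs and 22.3, 31.5 and 25.8 CPM in the shock grafts (log2 fold change -1.83, SE 0.20, adjusted p = 5.79e-05). Summed over the family, levels were higher in the shock grafts, 6684 to 7002 CPM against 5739 to 5890 CPM in the naive lungs. The share called lower went with level. Of 130 members under 5 CPM 56.2% were lower, against 16.3% of all tested genes at that level, and of 116 between 5 and 20 CPM 47.4%, against 26.1%. Of the 86 members at 20 CPM or more 18.6% were lower and 33.7% higher (median 0.21), near the 14.7% and 32.3% of all genes there. The list goes by gene name, and which members hold a KRAB domain was not examined. Zfp36 encodes the mRNA-destabilizing protein tristetraprolin. It stood at 171, 102 and 108.1 CPM in the naive lungs and 1049, 956 and 1082 CPM in the shock grafts (log2 fold change 3.02, SE 0.23, adjusted p = 6.35e-06).

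Hox and Sox factors were more often lower than higher, and Fox factors were not. Of 16 Hox genes tested 8 were lower and none higher (median -1.28). The median of the list per library was -0.93, -1.33 and -0.48 in the shock grafts relative to the naive mean. Summed Hox levels were 116.5 to 126.1 CPM in the naive lungs and 43.9, 33.9 and 132.9 CPM in the shock grafts. The sum of the third graft thus lay above that of every naive lung. Hoxa7 stood at 12.3, 10.2 and 9.43 CPM in the naive lungs and 1.13, 0.299 and 2.12 CPM in the shock grafts (log2 fold change -3.15, SE 0.49, adjusted p = 0.000659) and Hoxb5 at 11.8, 11.8 and 11.4 CPM in the naive lungs and 2.26, 4.73 and 2.48 CPM in the shock grafts (log2 fold change -1.89, SE 0.29, adjusted p = 0.000546). Of 12 Sox factors 6 were lower and 1 higher. Sox17 and Sox18, endothelial factors, stood at 47.4, 56.0 and 67.3 CPM in the naive lungs and 10.4, 4.93 and 7.77 CPM in the shock grafts and at 115, 158 and 224 CPM in the naive lungs and 22.5, 13.2 and 18.8 CPM in the shock grafts respectively (log2 fold changes -2.88 and -3.19). Sox9, a factor of airway and cartilage progenitors, stood at 0.601, 0.498 and 0.860 CPM in the naive lungs and 13.0, 17.2 and 13.2 CPM in the shock grafts (log2 fold change 4.43, SE 0.46, adjusted p = 4.80e-05), the only Sox gene called higher. Among 27 Fox factors 8 were higher and 5 lower. Foxf2, a mesenchymal factor, stood at 45.7, 57.0 and 64.1 CPM in the naive lungs and 9.58, 13.5 and 9.98 CPM in the shock grafts (log2 fold change -2.34, SE 0.19, adjusted p = 8.91e-06), while Foxp4 (1.21) and Foxq1 (1.85) rose. Under upper-quartile scaling 10 Fox factors were lower, and without the third naive lung 3.

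Developmental signalling genes were more often lower than higher. Of 18 Notch and ephrin genes 11 were lower and 4 higher (median -0.98). Their summed levels did not fall, at 1918 to 2320 CPM in the naive lungs and 2742, 2050 and 2404 CPM in the shock grafts. Hey1, a direct Notch target of arteries, stood at 73.8, 97.3 and 90.2 CPM in the naive lungs and 6.57, 5.88 and 12.2 CPM in the shock grafts (log2 fold change -3.41, SE 0.33, adjusted p = 2.91e-05). Ephb4, the venous ephrin receptor, stood at 193, 204 and 278 CPM in the naive lungs and 81.9, 57.3 and 104.9 CPM in the shock grafts (log2 fold change -1.47, SE 0.23, adjusted p = 0.00071). Epha2 moved the other way, at 74.5, 65.2 and 88.8 CPM in the naive lungs and 565, 424 and 509 CPM in the shock grafts (log2 fold change 2.71, SE 0.19, adjusted p = 4.17e-06). Of 26 Wnt pathway genes 10 were lower and 2 higher (median -0.83), and 1 was higher without any 1 naive lung. The receptor gene Fzd7 stood at 67.6, 70.4 and 77.5 CPM in the naive lungs and 20.0, 17.2 and 16.7 CPM in the shock grafts (log2 fold change -2.00, SE 0.14, adjusted p = 4.74e-06), and the feedback target Axin2 at 39.3, 29.0 and 43.0 CPM in the naive lungs and 13.2, 14.9 and 13.1 CPM in the shock grafts (log2 fold change -1.43, SE 0.19, adjusted p = 0.000217). Of 11 Hedgehog genes 7 were lower and none higher (median -1.17). Ptch1, both receptor and target of the pathway, stood at 98.9, 73.2 and 63.0 CPM in the naive lungs and 33.8, 19.2 and 30.7 CPM in the shock grafts (log2 fold change -1.49, SE 0.25, adjusted p = 0.000952), and the effector Gli2 at 6.58, 7.78 and 7.66 CPM in the naive lungs and 2.13, 0.698 and 2.26 CPM in the shock grafts (log2 fold change -2.10, SE 0.37, adjusted p = 0.00142). For each single gene named here the shock grafts did not overlap the naive lungs.

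BMP ligands, inhibitors and targets had 9 lower and 4 higher of 20, and 5 lower without the second or the third naive lung or without the second shock graft. Id1, a direct BMP target, stood at 99.7, 79.9 and 114 CPM in the naive lungs and 28.5, 43.1 and 31.5 CPM in the shock grafts (log2 fold change -1.51, SE 0.19, adjusted p = 0.000184). Smad6, an inhibitor that the pathway induces, stood at 249, 193 and 297 CPM in the naive lungs and 71.9, 74.3 and 104 CPM in the shock grafts (log2 fold change -1.56, SE 0.21, adjusted p = 0.000242). Gdf2, which encodes BMP9, had 131 reads over the naive lungs and 1 over the shock grafts (ratio 89.6, interval 15.8 to 3570). Inhbb, a subunit of activin, was the member that rose most surely, at 21.1, 21.7 and 22.0 CPM in the naive lungs and 242, 507 and 178 CPM in the shock grafts (log2 fold change 3.84, SE 0.43, adjusted p = 7.84e-05). Gdf2, Id1 and Smad6 were thus low in the shock grafts while Inhbb was high. Summed over the list, levels overlapped, 3349 to 3461 CPM in the naive lungs and 2633 to 3474 CPM in the shock grafts.

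**Figure D4:**
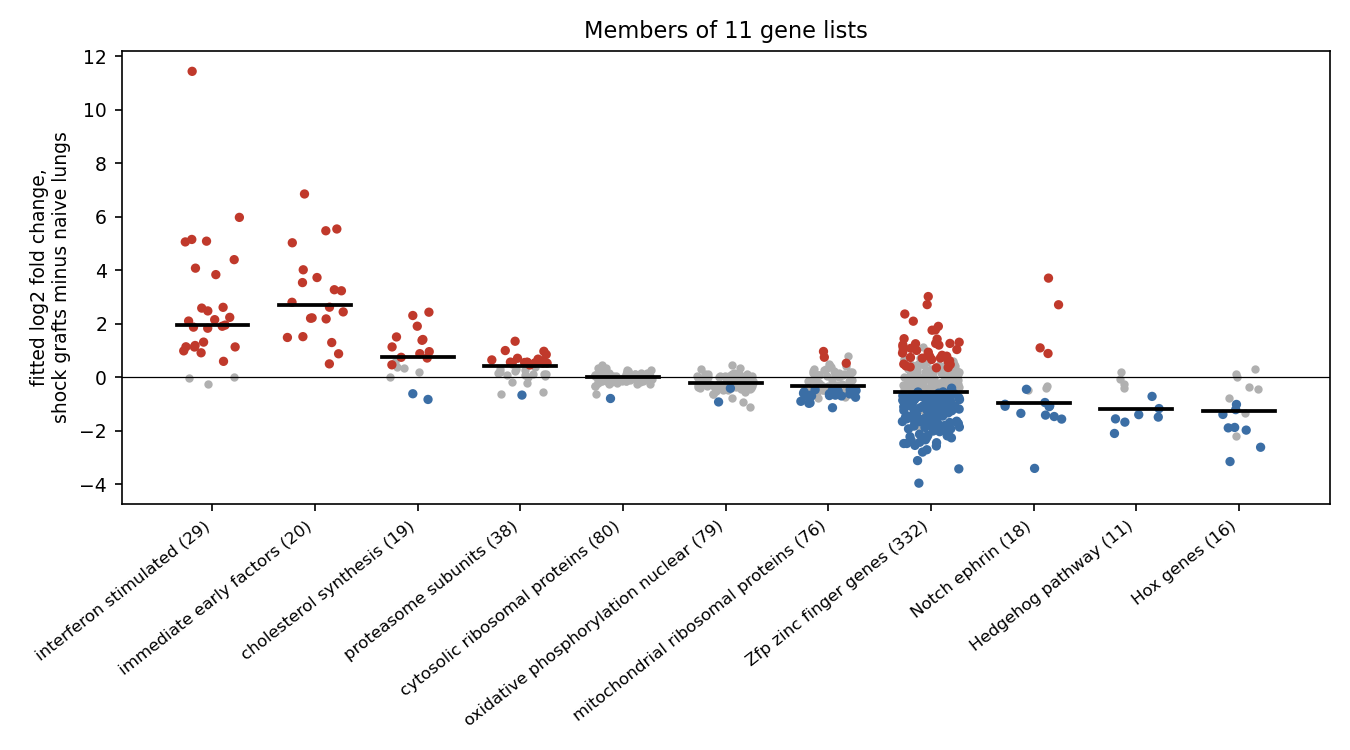
Fitted log2 fold change of shock grafts over naive lungs for each tested member of 11 gene lists, with called members in red (higher) or blue (lower), others in grey, and a black bar at the median of the list. Interferon-stimulated and immediate early genes lie high (medians 1.95 and 2.71), cytosolic ribosomal proteins lie in a narrow band at 0.01, and Zfp, Notch and ephrin, Hedgehog and Hox genes lie low (medians -0.55, -0.98, -1.17 and -1.28).

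Matrix metalloproteases were more often higher, while the ADAMTS proteases had 3 higher and 3 lower of 16 (median -0.36) and structural matrix lists were lower in shares near the background. Of 20 matrix metalloproteases and their inhibitors 10 were higher and 5 lower. Mmp8, the collagenase of neutrophil granules, stood at 3.26, 2.53 and 4.15 CPM in the naive lungs and 287, 256 and 136 CPM in the shock grafts (log2 fold change 6.08, SE 0.37, adjusted p = 1.71e-06). Mmp13 stood at 0.544, 0.769 and 1.04 CPM in the naive lungs and 16.5, 13.1 and 10.7 CPM in the shock grafts (log2 fold change 4.08, SE 0.35, adjusted p = 1.23e-05), and Mmp28, an epithelial member, at 35.9, 35.5 and 53.01 CPM in the naive lungs and 8.87, 4.73 and 4.11 CPM in the shock grafts (log2 fold change -2.81, SE 0.31, adjusted p = 7.69e-05). Of 37 collagens 3 were higher and 8 lower (median -0.68). The count of 8 was 15 without the third shock graft and 15 under upper-quartile scaling. It was 4, 2, 5 and 5 without the second or the third naive lung or the first or the second shock graft. The median of the collagens per library was -0.54, -0.89 and -0.08 in the shock grafts relative to the naive mean, so the third graft lay near the naive lungs. Of 17 elastic fibre genes 4 were lower and 1 higher, with Mfap2, a microfibril protein, at 43.4, 50.03 and 62.5 CPM in the naive lungs and 12.5, 6.18 and 9.40 CPM in the shock grafts (log2 fold change -2.47, SE 0.30, adjusted p = 0.000128). Without the third shock graft 10 were lower, without the second 2 and without the third naive lung 1, while the groups of the deposited tables gave 9, upper-quartile scaling 8 and a replicate block 7.

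Receptors for matrix and guidance cues moved both ways. Of 31 integrins 11 were higher and 4 lower. Itga5, the fibronectin receptor subunit, stood at 55.0, 56.8 and 81.8 CPM in the naive lungs and 415, 635 and 181 CPM in the shock grafts (log2 fold change 2.67, SE 0.40, adjusted p = 0.000475). Itgav, a partner of several beta subunits, stood at 80.3, 74.2 and 93.5 CPM in the naive lungs and 269.7, 247 and 247 CPM in the shock grafts (log2 fold change 1.62, SE 0.21, adjusted p = 0.000199). Itgb5 stood at 163, 178 and 192 CPM in the naive lungs and 114, 65.2 and 115 CPM in the shock grafts (log2 fold change -0.86, SE 0.21, adjusted p = 0.00803). Only 2 integrins were lower without the second or the third naive lung, without any 1 cold-ischemia graft, or with the 6 libraries alone. Of 30 semaphorins and plexins 9 were higher and 8 lower. Sema4c stood at 35.02, 25.5 and 37.7 CPM in the naive lungs and 299.7, 199.99 and 475 CPM in the shock grafts (log2 fold change 3.31, SE 0.30, adjusted p = 2.10e-05), and Sema3g, an arterial semaphorin, at 312, 301 and 366 CPM in the naive lungs and 103, 58.8 and 90.3 CPM in the shock grafts (log2 fold change -1.96, SE 0.25, adjusted p = 0.000206). The lower count was 4, 5 and 5 without the second naive lung, the third naive lung or the second shock graft.

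Transporters, junction genes and receptors of the cell membrane changed in selected members. Of 266 solute carriers 64 were higher and 34 lower, near the background. Slc7a1, the importer of arginine, stood at 21.5, 18.9 and 26.8 CPM in the naive lungs and 249.9, 218 and 204 CPM in the shock grafts (log2 fold change 3.32, SE 0.18, adjusted p = 8.65e-07), and Slc25a25, a mitochondrial ATP-Mg carrier, at 33.0, 23.9 and 26.1 CPM in the naive lungs and 321, 255 and 279.8 CPM in the shock grafts (log2 fold change 3.37, SE 0.18, adjusted p = 8.33e-07). The 34 became 68 under upper-quartile scaling and 22 without the first naive lung. Of 22 tight junction genes 10 were higher and 1 lower, and 6 were higher and 5 lower under upper-quartile scaling. Cldn4, a claudin that injured alveolar epithelium raises, stood at 5.09, 4.25 and 4.603 CPM in the naive lungs and 168, 64.4 and 141 CPM in the shock grafts (log2 fold change 4.74, SE 0.51, adjusted p = 5.84e-05). Genes that clear fluid from the airspace had 6 of 14 higher and 1 lower. All 3 grafts lay above the naive lungs for Cldn4, which was lowest in the second graft.

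Of 55 orphan-type G protein-coupled receptors 17 were higher and 10 lower, with Gpr35 at 4.21, 5.38 and 4.96 CPM in the naive lungs and 40.0, 39.3 and 22.5 CPM in the shock grafts (log2 fold change 2.81, SE 0.23, adjusted p = 9.77e-06) and Gpr125 at 90.3, 80.3 and 98.7 CPM in the naive lungs and 44.7, 34.2 and 41.3 CPM in the shock grafts (log2 fold change -1.16, SE 0.15, adjusted p = 0.000232). Potassium channels had 9 higher and 10 lower of 63, and 16 lower under upper-quartile scaling and 5 without the third naive lung. Kcnk3, the two-pore channel TASK-1 of pulmonary arteries, stood at 49.5, 67.2 and 72.3 CPM in the naive lungs and 20.6, 23.2 and 27.8 CPM in the shock grafts (log2 fold change -1.40, SE 0.19, adjusted p = 0.000245). Rgs16, which shortens G protein signals, stood at 0.801, 0.769 and 0.607 CPM in the naive lungs and 35.4, 72.8 and 23.5 CPM in the shock grafts (log2 fold change 5.92, SE 0.45, adjusted p = 6.62e-06). Of 16 regulators of G protein signalling, Rgs16 among them, 4 were higher and 3 lower, and 6 were lower under upper-quartile scaling. The single genes named here moved in every graft. In their families the share called lower was near that of all genes. The share called higher was above that of all genes for the orphan-type receptors and below it for the potassium channels.

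Endothelial marker lists held more lower than higher members. Of 18 pan-endothelial markers 8 were lower and 5 higher (median -0.60). Ramp2, the partner of Calcrl, stood at 345, 312 and 297 CPM in the naive lungs and 99.1, 48.9 and 63.8 CPM in the shock grafts (log2 fold change -2.17, SE 0.27, adjusted p = 0.000146), and Robo4 at 59.8, 76.2 and 88.1 CPM in the naive lungs and 162, 196 and 191 CPM in the shock grafts (log2 fold change 1.29, SE 0.19, adjusted p = 0.000444). The higher count was 3 without the third shock graft or with the grouping of the deposited tables, 2 without the first or the second naive lung and 2 under upper-quartile scaling. General capillary cells had 7 of 12 markers lower and 2 higher (median -1.01), and 3 lower without the first naive lung and 4 without the second shock graft. Only 1 was higher without any 1 naive lung or without the first or the second shock graft. Kit stood at 218, 264 and 188 CPM in the naive lungs and 80.2, 48.4 and 116 CPM in the shock grafts (log2 fold change -1.45, SE 0.29, adjusted p = 0.00255), and Cd93, a receptor that inflamed endothelium raises, at 465, 582 and 686 CPM in the naive lungs and 2385, 1341 and 1159 CPM in the shock grafts (log2 fold change 1.49, SE 0.30, adjusted p = 0.00282). Aerocytes, the large capillary cells that line gas-exchange surfaces, had 5 of 11 lower and none higher, and 3 lower without the third naive lung. Tbx2 stood at 354, 341 and 391 CPM in the naive lungs and 93.0, 103 and 113 CPM in the shock grafts (log2 fold change -1.81, SE 0.15, adjusted p = 9.02e-06). Markers of arteries, veins and lymphatics had 3 higher and 5 lower of 15 (median -0.11), and venous genes among them went opposite ways. Nr2f2, the factor of venous identity, stood at 94.5, 104 and 94.1 CPM in the naive lungs and 17.2, 21.0 and 22.2 CPM in the shock grafts (log2 fold change -2.28, SE 0.14, adjusted p = 1.80e-06). Ackr1, a chemokine-binding receptor of venules, had 29 reads over the naive lungs and 744 over the shock grafts (ratio 37.5, interval 25.9 to 56.4). In whole lung, fewer cells of a type and less RNA per cell cannot be told apart, here and in all marker lists below. Summed over the 18 pan-endothelial markers, levels were 6791 to 7127 CPM in the naive lungs and 4312 to 6456 CPM in the shock grafts, lowest in the second.

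Epithelial markers changed little. Of 16 markers of alveolar type 2 cells none was higher and 3 were lower, and of 16 of type 1 cells 1 was higher and 2 lower. Etv5, a factor of type 2 cells, stood at 247, 256 and 149.9 CPM in the naive lungs and 135, 71.6 and 70.6 CPM in the shock grafts (log2 fold change -1.23, SE 0.30, adjusted p = 0.00749). Gprc5a, a retinoic acid-inducible receptor, stood at 647, 639 and 655 CPM in the naive lungs and 1184, 1276 and 1419 CPM in the shock grafts (log2 fold change 1.00, SE 0.14, adjusted p = 0.00035). Without the third shock graft 6 type 1 markers were lower, and likewise 6 under upper-quartile scaling, while the grouping of the deposited tables gave 4 and the fit without the third naive lung gave 1. Club and secretory cells had 1 marker higher and 1 lower of 14, and ciliated cells none higher and 1 lower of 19. Without the third shock graft or with the groups of the deposited tables, 4 club markers were lower, and 3 ciliated ones. As fitted with all libraries and the titles' groups, these shares are near or under the background in both directions.

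Mesothelial markers were low in every graft, while for fibroblast and smooth muscle markers the third graft stood near the naive lungs. Of 15 mesothelial markers 10 were lower and 2 higher (median -2.19). Aldh1a2, which makes retinoic acid, stood at 23.8, 25.5 and 21.0 CPM in the naive lungs and 5.02, 2.29 and 3.07 CPM in the shock grafts (log2 fold change -2.75, SE 0.29, adjusted p = 4.88e-05), and Cldn15 at 12.6, 14.3 and 12.7 CPM in the naive lungs and 2.68, 0.996 and 1.08 CPM in the shock grafts (log2 fold change -3.04, SE 0.42, adjusted p = 0.00032). Krt19, also a keratin of epithelium, stood at 133, 123 and 112 CPM in the naive lungs and 367, 465 and 399 CPM in the shock grafts (log2 fold change 1.74, SE 0.15, adjusted p = 1.65e-05). Summed mesothelial levels overlapped, 1725 to 2028 CPM in the naive lungs and 1647 to 2301 CPM in the shock grafts. Of 18 fibroblast markers 7 were lower and none higher (median -0.87). Fgf10, a growth factor for epithelium, stood at 23.9, 23.3 and 27.3 CPM in the naive lungs and 11.01, 6.88 and 12.2 CPM in the shock grafts (log2 fold change -1.31, SE 0.22, adjusted p = 0.000955). The count was 13 without the third shock graft, 4 without the second, 3 without the first, and 4 or 3 without the second or the third naive lung. Of 18 smooth muscle and pericyte markers 5 were lower, 10 with the groups of the deposited tables and 13 without the third shock graft. Without the second shock graft 3 were called higher. Lmod1, a contractile gene, stood at 17.4, 23.5 and 21.2 CPM in the naive lungs and 4.18, 2.24 and 4.79 CPM in the shock grafts (log2 fold change -2.46, SE 0.28, adjusted p = 8.29e-05), and Gucy1a3, the nitric oxide receptor subunit, at 289, 275 and 313 CPM in the naive lungs and 85.2, 59.9 and 105.2 CPM in the shock grafts (log2 fold change -1.81, SE 0.22, adjusted p = 0.000132). The list's median per library was -0.85, -1.63 and 0.18 in the shock grafts relative to the naive mean.

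Adipocyte markers had 8 of 10 lower and 1 higher (median -3.16), yet 4 lower without the second naive lung. Cfd, which encodes the adipokine adipsin, stood at 8.13, 87.3 and 51.7 CPM in the naive lungs and 4.85, 1.20 and 4.65 CPM in the shock grafts (log2 fold change -3.77, SE 0.79, adjusted p = 0.00352). The naive lungs themselves differed widely there, and the first of them lay close to the highest shock graft. Cardiac muscle markers had none called of 12, with per-library medians of -1.90, -0.27 and 1.27 in the shock grafts. The share of adjoining fat or heart muscle in each lung was not measured, and its part in these values was not tested.

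**Figure D5:**
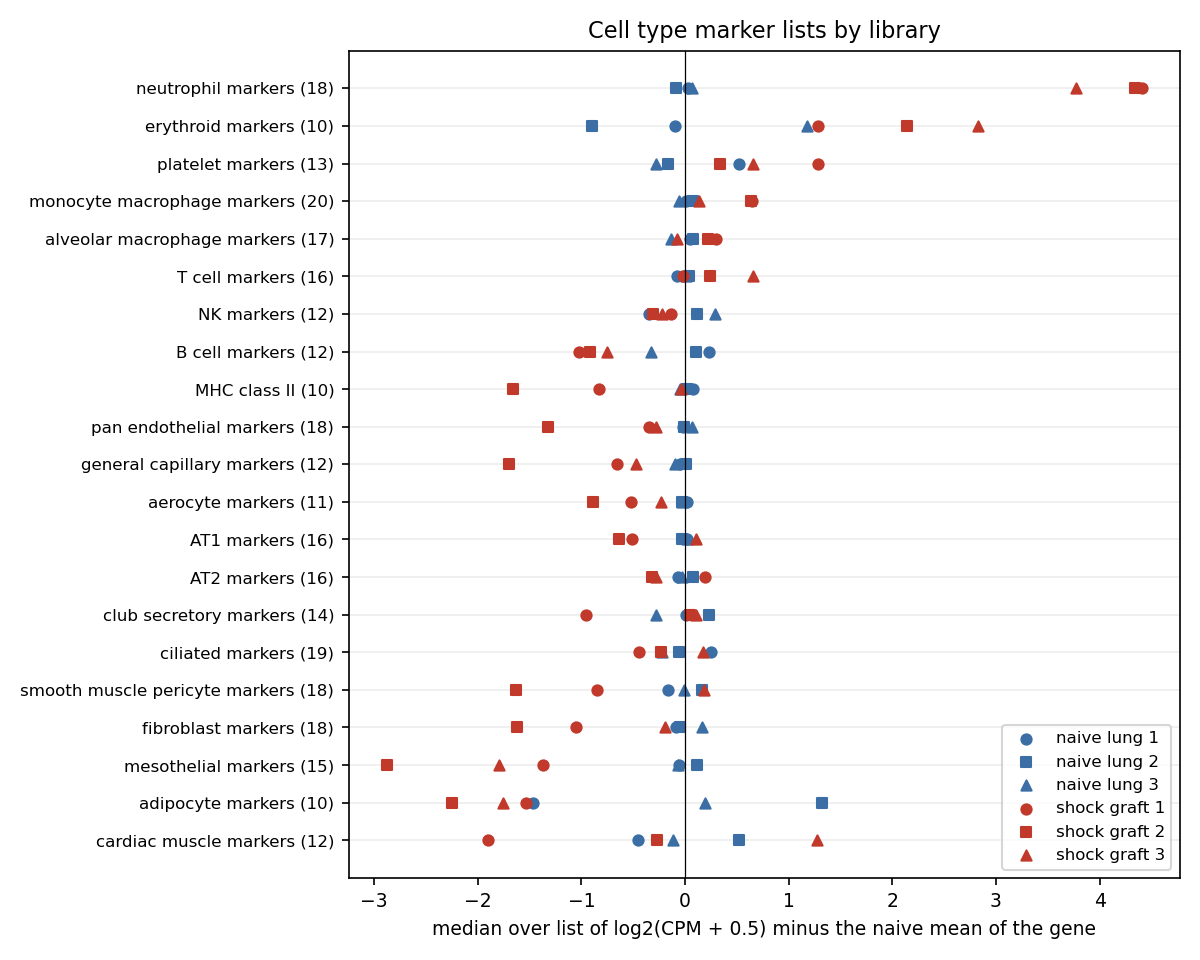
For each cell type marker list, the median over its tested members (number in parentheses) of log2(CPM + 0.5) minus the naive mean of the gene, with naive lungs in blue, shock grafts in red, and circles, squares and triangles for replicates 1, 2 and 3. Neutrophil markers lie at 3.77 to 4.41 in the shock grafts, mesothelial markers at -2.88 to -1.37, and the third shock graft lies near the naive lungs for MHC class II, fibroblast and smooth muscle lists.

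Neutrophil genes rose without exception, 18 of 18 (median 4.40). Retnlg stood at 7.15, 5.43 and 5.21 CPM in the naive lungs and 319, 374 and 182 CPM in the shock grafts (log2 fold change 5.62, SE 0.33, adjusted p = 1.47e-06). Ly6g, the surface antigen that defines mouse neutrophils, had 14 reads over the naive lungs and 1166 over the shock grafts (ratio 122, interval 72.2 to 223). Summed over the list, levels were 255 to 312 CPM in the naive lungs and 2991 to 5160 CPM in the shock grafts, and none of the 18 was at 0 reads in a group. Of 20 monocyte and macrophage markers 9 were higher and 2 lower. Cd14, the coreceptor for endotoxin, stood at 25.2, 23.7 and 22.96 CPM in the naive lungs and 539, 916 and 739 CPM in the shock grafts (log2 fold change 4.93, SE 0.23, adjusted p = 5.95e-07), and Msr1, the scavenger receptor A, at 2.83, 2.17 and 2.60 CPM in the naive lungs and 19.9, 36.1 and 16.9 CPM in the shock grafts (log2 fold change 3.25, SE 0.35, adjusted p = 5.95e-05). Cx3cr1, the receptor of patrolling monocytes, stood at 12.7, 13.9 and 10.6 CPM in the naive lungs and 5.44, 0.747 and 1.40 CPM in the shock grafts (log2 fold change -2.28, SE 0.55, adjusted p = 0.00776). The lower count was 1 without the first or the second naive lung, the first or the second cold-ischemia graft, or the first or the third shock graft.

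B cell markers were more often lower, and other lymphoid and antigen presentation genes were mixed. Of 12 B cell markers 7 were lower and none higher (median -1.04), with Cd79b at 24.3, 22.6 and 20.6 CPM in the naive lungs and 9.12, 9.62 and 11.02 CPM in the shock grafts (log2 fold change -1.18, SE 0.18, adjusted p = 0.000561). Summed over the list, levels were 125 to 169.6 CPM in the naive lungs and 71.0 to 99.5 CPM in the shock grafts. T cell markers had 3 of 16 higher and none lower. Natural killer cell markers, with Gzmb and Klrb1c among them, had 2 higher and 2 lower of 12 (median -0.37). Only 1 of them was lower without any 1 naive lung, and 8 of the 12 were not called. Gzmb, which encodes granzyme B, stood at 2.66, 2.31 and 3.87 CPM in the naive lungs and 15.3, 23.5 and 16.8 CPM in the shock grafts (log2 fold change 2.64, SE 0.27, adjusted p = 4.39e-05), whereas the natural killer receptor Klrb1c stood at 3.06, 5.20 and 5.34 CPM in the naive lungs and 1.93, 1.20 and 1.76 CPM in the shock grafts (log2 fold change -1.47, SE 0.33, adjusted p = 0.00511). Dendritic cell markers went both ways, 3 higher and 4 lower of 13 (median -0.24), with 2 lower without the second naive lung. Clec9a, a receptor of cross-presenting dendritic cells, stood at 35.1, 38.6 and 27.4 CPM in the naive lungs and 8.87, 0.847 and 5.51 CPM in the shock grafts (log2 fold change -2.72, SE 0.56, adjusted p = 0.00343). Of 10 MHC class II genes 4 were lower and none higher, and H2-Ob stood at 14.2, 12.5 and 10.5 CPM in the naive lungs and 3.93, 3.19 and 5.92 CPM in the shock grafts (log2 fold change -1.51, SE 0.31, adjusted p = 0.00305). That count was 8 without the third shock graft and 9 with the groups of the deposited tables, but 2 without the first or the second naive lung or the first or the second shock graft. MHC class I genes had 7 of 15 higher, and among them the Q genes H2-Q4, H2-Q6 and H2-Q7 (log2 fold changes 1.68, 2.44 and 1.66) are near copies of each other and differ between C57BL/6 and Balb/C, so their reads may be assigned unevenly.

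Erythroid genes were higher in 8 of 10, from naive levels that varied widely. Alas2, the heme synthesis enzyme of red cell precursors, stood at 2.15, 1.31 and 8.45 CPM in the naive lungs and 27.7, 25.3 and 41.5 CPM in the shock grafts (log2 fold change 2.96, SE 0.59, adjusted p = 0.00268). Summed over the list, levels were 50.4 to 243.8 CPM in the naive lungs and 595 to 1032 CPM in the shock grafts. The count was 5 without the third shock graft or the first naive lung, 4 without the second naive lung, and 5 with the groups of the deposited tables. Of 13 platelet markers 3 were higher, 5 without the first naive lung or the second shock graft and 1 without the second naive lung. How much blood stayed in each lung was not measured, and its part in these values was not tested.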

How the data were processed

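Whole left lungs were sequenced as 9 libraries, 3 per group. Per the labels' protocols, RNA was prepared for sequencing with a NEBNext Ultra II kit, and whether strand was kept is not stated, so reads of overlapping antisense genes cannot be told apart. Of 3 deposited tables, each holds the libraries of a pair of groups. Their read counts are raw, per the file headers, and were joined by gene identifier over 23944 genes, with 0 values differing between tables. The deposited normalized signal, the deposited FPKM, and the authors' log2 fold changes and p-values were not used for any value here. STAR, HTSeq, DESeq2 and edgeR with mm10 are named per the submitters' processing notes, and the gene annotation is not given there. Reads of the Balb/C recipient's cells were counted on the same C57BL/6-based build.

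Genes kept by filterByExpr (15834) entered edgeR (version 4.0.16, R 4.3.3), whose two-sided quasi-likelihood test was run on counts scaled by TMM, in 1 fit of all 9 libraries with group means. A call needs an adjusted p (Benjamini-Hochberg) under 0.05. Standard errors are the log2 fold change divided by the root of the test statistic. On data simulated for the comparison of shock grafts and naive lungs, over 15553 genes in that step, 52 of 100 genes changed 2-fold and 95 of 100 changed 4-fold were called, with 6 unchanged genes. Alternatives were DESeq2 1.42.0, other scalings and filters, a replicate block, the groups of the deposited tables and leaving out each library. The smallest total, 18913487 reads, limits the precision for low genes.

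Named genes were the 10 largest rises and 10 largest falls among called genes with at least 5 CPM in the higher group, no overlap, a symbol other than those of predicted genes, and no place in the list of 104 chemokines and cytokines left aside, the 6 largest gains and losses in CPM, and, for each list, at most 3 members by adjusted p and 1 in the other direction. Rsad2, Ifit1, Oas3 (named for their promoter match), Sftpc, and the sex-linked and strain transcripts stand outside that rule. Some genes that the rule chose are not reported here. The comparison, the lists and the tests were chosen with earlier results of these data known. Lists are described by counts and medians, with no test of a list.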

Additional observations from a re-analysis of the deposited data

How the results depend on the processing

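Of 262 genes named by the rule, none reversed direction in any alternative, 221 kept their call in all of them and 41 lost it in at least 1. They were chosen from these same results and do not stand for all called genes. Of all called genes, between 72.2% (without the second naive lung) and 99.2% (with DESeq2) kept call and direction. Against naive lungs, 6319 genes were called, 3483 higher and 2836 lower. Leaving out each of the 9 libraries in turn gave 4613 to 6635 called, 2744 to 3523 higher and 1869 to 3112 lower, the lowest of them without the second naive lung, and no gene called against cold-ischemia grafts (0 to 0). Under upper-quartile scaling 4661 genes were lower, and the cause was not tested. A test against a fold of at least 2 called 1371 genes, 1041 higher and 330 lower, since it asks for a larger change. Against the cold-ischemia grafts the main 0 became 8 with DESeq2 and 124 with the groups of the deposited tables, and the cause was not tested. The replicate block, run because the labels number lungs 1 to 3 in each group, called 5801 genes (3181 higher, 2620 lower). Same-numbered shock grafts and naive lungs did not deviate together across genes (r = 0.05, -0.067 and -0.045). For pairs of unlike number r ran from -0.058 to 0.118. A correlation over all genes cannot exclude a pairing that touches only some of them. In the simulated data 52 of 100 2-fold changes were called. Only 100 genes were changed 2-fold and 100 4-fold there, while 6319 were called here. The adjusted p is stricter when few genes change, so that share need not hold for this comparison. Of the counts of list members recomputed in alternatives, 300 moved by over 1.5 times and 2216 did not. Those of main counts over 4 that were printed are given beside the result, and of smaller counts only some are.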

Other observations

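Long intergenic and antisense RNAs were called in smaller shares than protein-coding genes. Of 346 lincRNAs 56 were higher and 48 lower (16.2% and 13.9%), and of 212 antisense RNAs 40 were higher and 25 lower (18.9% and 11.8%), against 22.4% and 18.4% of 14687 protein-coding genes. Shares called also went with level, with 11.9% higher and 15.0% lower in the quartile of all genes with the lowest mean CPM. The classes were not compared at like level. Without known strand, an antisense RNA and its partner cannot be told apart. Of 311 pseudogenes 69 were higher and 20 lower (22.2% and 6.4%, median log2 fold change 0.27). Over all genes tested the shares were 22.0% and 17.9%, so only the lower share of the pseudogenes stood apart. Genes of the class IG_LV_gene had 3 higher and 12 lower of 60 (5.0% and 20.0%), with a median of -1.26. Their lower share was near that of all genes.

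A pair of transcripts had no read in any naive lung and many in every graft. H2-Ea-ps, which C57BL/6 mice do not express because the promoter of this class II gene is deleted in that strain, had 1400 reads over the shock grafts, at least 682-fold higher against a floor of 3 reads over the naive group. It stood at 24.6, 15.4 and 22.7 CPM in the shock grafts and 12.2, 13.7 and 17.3 CPM in the cold-ischemia grafts. Ifi202b, the other one, was described above. The part of recipient-strain cells in the reads of both was not tested. Y-linked genes moved apart from each other. Ddx3y stood at 64.6, 57.2 and 78.4 CPM in the naive lungs and 221, 160.0 and 231 CPM in the shock grafts (log2 fold change 1.61, SE 0.18, adjusted p = 7.04e-05), and Eif2s3y at 23.3, 23.9 and 21.6 CPM in the naive lungs and 36.1, 46.2 and 44.7 CPM in the shock grafts (log2 fold change 0.89, SE 0.15, adjusted p = 0.00101). Kdm5d stood at 19.6, 19.3 and 20.6 CPM in the naive lungs and 12.8, 9.12 and 11.8 CPM in the shock grafts (log2 fold change -0.82, SE 0.17, adjusted p = 0.00368), lower in every shock graft, and Uty stood at 19.3, 16.6 and 18.1 CPM in the naive lungs and 19.5, 14.2 and 16.7 CPM in the shock grafts (adjusted p = 0.668).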
